A study of Mus musculus with 2 samples.

Results

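Sox9, Lhx2, Lgr5, Lgr6, Cd34, Tbx1, Nfatc1, Lrig1, Foxc1 and Sostdc1, genes known as markers or regulators of hair follicle stem cells, were followed in single cells of mouse skin. These 10 genes were chosen by name from the 19059 genes of the deposited count tables, and all 10 were measured. Wildtype skin came from 1 C57BL/6J mouse and Eppk1-/- skin from 1 Eppk1-/- mouse of a line crossed back to C57BL/6J. Eppk1 encodes epiplakin, a cytolinker that binds keratin filaments. Punch biopsies of untreated, intact dorsal skin were dissociated enzymatically. The fixed cells were profiled with a probe assay (10x Genomics Flex), which counts ligated probe pairs by their unique molecular identifiers (UMIs). The ages and sexes of the mice were not given in the sources used here.

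The hair follicle is a cylinder of epidermal cells that regrows its hair in cycles from stem cells kept in the bulge and in the secondary germ below it. Cd34, a sialomucin of the cell surface, marks mouse bulge cells, and Lgr5 and Lgr6 are receptors for R-spondins, secreted proteins that raise Wnt signalling. Lrig1, a membrane protein that restrains growth factor receptors, marks cells of the upper isthmus above the bulge. Sox9, Lhx2, Tbx1, Nfatc1 and Foxc1 are transcription factors needed for the formation, identity or quiescence of bulge cells, and Sostdc1 (also called ectodin or Wise) is a secreted inhibitor of BMP and Wnt signals.

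The genes are all protein-coding and lie on 9 chromosomes of GRCm38. In GENCODE M21, Sox9 spans chr11:112782224-112787760 on the plus strand, Foxc1 chr13:31806633-31812476 on the plus strand and Lhx2 chr2:38339281-38369733 on the plus strand. Tbx1 spans chr16:18580979-18590671 on the minus strand, and Nfatc1 lies on chromosome 18. Among the surface proteins, Lgr5 spans chr10:115450311-115587780 on the minus strand, Lgr6 chr1:134983301-135105276 on the minus strand, Cd34 chr1:194938819-194961279 on the plus strand and Lrig1 chr6:94604529-94700158 on the minus strand. Sostdc1 spans chr12:36314139-36318452 on the plus strand.

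After filtering, 8875 wildtype cells and 8617 Eppk1-/- cells were kept, with medians of 4941 and 4992 UMIs, from 77638793 and 65118304 UMIs deposited. The libraries shared 1211 droplet barcodes, which were present in 340 of the 2573 follicle keratinocytes, and without these cells the counts of genes past the rule of size given below were the same. Clusters named from marker genes held 5428 and 3992 keratinocyte-like cells. None of the 10 genes was used to form or name a cluster, although genes expressed alongside them were. Follicle keratinocytes below are 5 sub-clusters of keratinocyte-like cells named from follicle markers, with 1627 wildtype cells (30.0% of keratinocytes, 95% interval 28.8 to 31.2) and 946 Eppk1-/- cells (23.7%, 22.4 to 25.05). They are 2 bulge and germ-like sub-clusters (5 and 8), an outer sheath and isthmus-like sub-cluster (7), an upper follicle-like sub-cluster (4) and a companion layer and inner bulge-like sub-cluster (14). The last is called companion layer-like for short, although its name also covers inner bulge cells. As many outer sheath as bulge markers (5 of each) were detected in sub-cluster 8. As many outer sheath as companion layer markers (4 of each) were detected in sub-cluster 14. The names of sub-clusters 8 and 14 are therefore the least certain. For sub-cluster 5 the margin was small as well, with 7 of 10 bulge and 6 of 9 outer sheath markers detected. Sub-cluster 3 was led by Ccl2, Fst, Aldh3a1, Pdk4 and Sostdc1 itself. It was left unnamed, since 5 of 8 basal and 4 of 9 outer sheath markers were detected and follicle markers outnumbered basal ones among its 10 leading genes. It is not counted as follicle below.

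The knockout was visible in the targeted gene. Eppk1 stood at 2968 UMIs per 1000000 (CPM) in wildtype keratinocytes and 785 in Eppk1-/- keratinocytes, and at 1689 and 328 CPM in follicle keratinocytes, so that counts remained in the library labelled Eppk1-/-. Each genotype is 1 library from 1 mouse, and no difference between genotypes could be tested. All intervals are exact 95% intervals that cover counting error only, not the spread between mice. Levels are UMIs of a gene summed over the cells of a group and divided by the group's total, and they are compared between groups for 1 gene, not between genes, because probes differ in efficiency. Each cell was thinned to 2000 UMIs before counting the cells that held a gene, and 219 wildtype and 146 Eppk1-/- follicle keratinocytes with fewer UMIs were not counted.

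Most of the 10 genes had their highest keratinocyte level in the follicle. Of the 14 keratinocyte sub-clusters, a follicle sub-cluster held the highest level of 9 of the 10 genes, averaged over the libraries, while Sostdc1 was highest in the unnamed sub-cluster 3. The share of all genes that are highest in a follicle sub-cluster was not determined, so the count of 9 has no background. The share of keratinocyte UMIs that lay in follicle keratinocytes ran from 94.7% in wildtype and 96.4% in Eppk1-/- cells for Tbx1 to 40.6% and 33.4% for Lrig1. Sostdc1 (46.6% and 43.1%) and Lgr6 (49.9% and 35.7%) also had most of their keratinocyte UMIs in other sub-clusters. These others include the unnamed sub-cluster 3, which had the highest level of Sostdc1 and the next to highest of Lrig1. The follicle shares of Sostdc1 and Lrig1 therefore depend on leaving that sub-cluster out of the follicle. The genes did not share a single peak. Averaged over the libraries, Cd34, Lgr5, Tbx1 and Lhx2 were highest in the bulge and germ-like cells, and Lgr6, Lrig1 and Nfatc1 in the outer sheath and isthmus-like cells. Sox9 and Foxc1 were highest in the companion layer and inner bulge-like cells, which were few (61 and 12 cells).

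**Figure D1:**
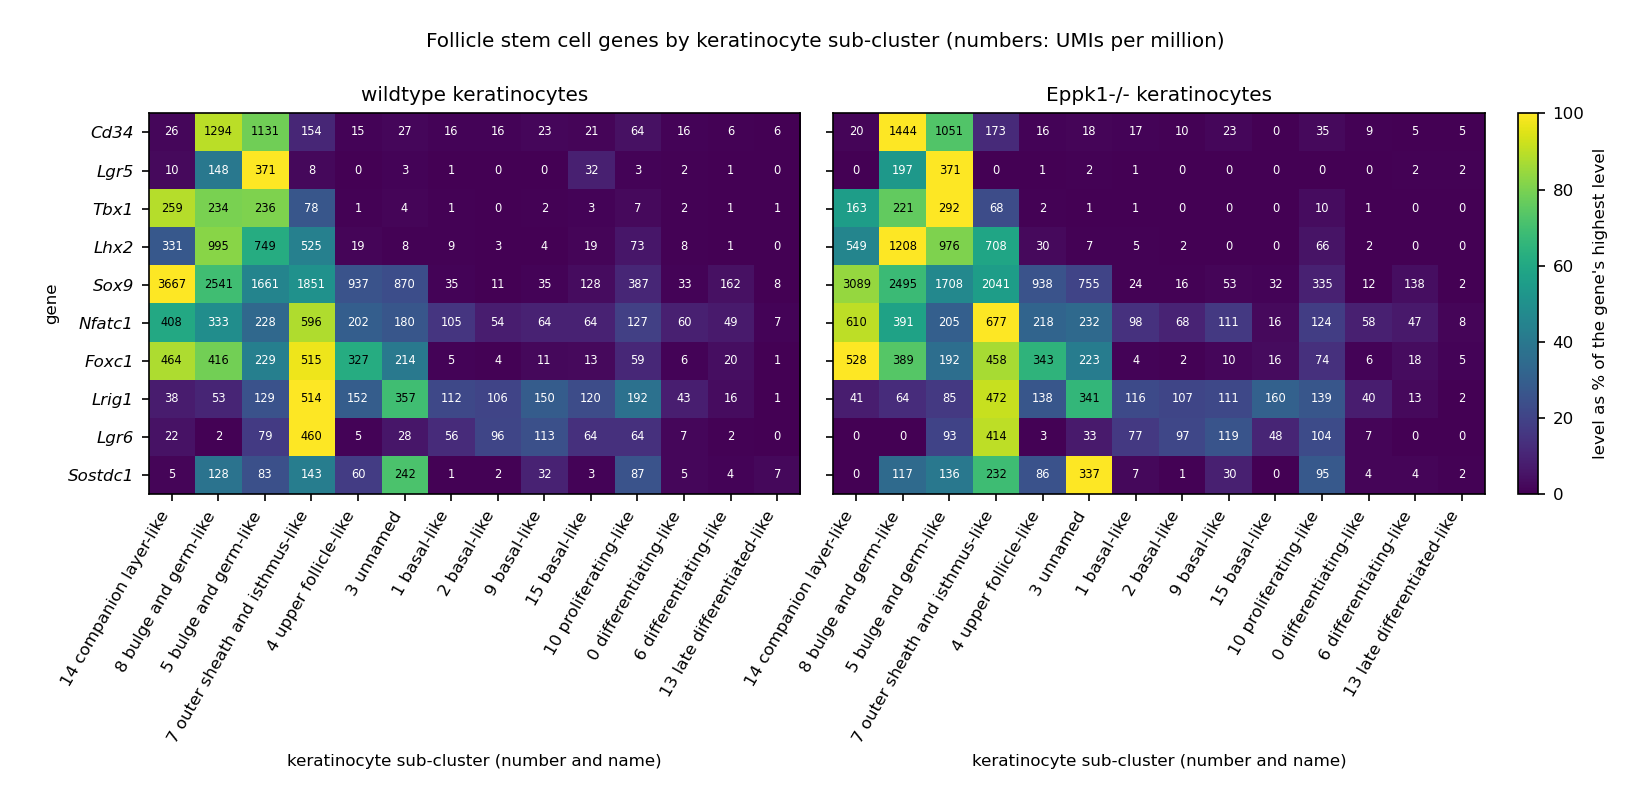
Level of each of the 10 genes (vertical axis) in the 14 keratinocyte sub-clusters (horizontal axis), with wildtype cells on the left and Eppk1-/- cells on the right; the printed values are CPM and the colour is the level as a percent of the gene's highest. Lgr5 peaks at 371 CPM in sub-cluster 5 of both libraries, Lgr6 at 460 and 414 CPM in sub-cluster 7, and Sostdc1 at 242 and 337 CPM in sub-cluster 3.

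Lgr5 was the most restricted of the surface proteins within the epidermis. It stood at 371 CPM in sub-cluster 5 of both libraries (intervals 342 to 402 in wildtype and 332 to 414 in Eppk1-/-). In sub-cluster 8 it stood at 148 CPM in wildtype versus 197 CPM in Eppk1-/- cells. Outside these bulge and germ-like cells it was close to absent from keratinocytes, with 7.51 CPM (10 UMIs) in wildtype sub-cluster 7, 0 UMIs in its Eppk1-/- counterpart, and at most 3.18 CPM in any other sub-cluster of over 100 cells. The small sub-cluster 15 had 12 UMIs in 53 wildtype cells and 0 in 12 Eppk1-/- cells. A UMI of Lgr5 was found in 47.6% of the wildtype and 49.2% of Eppk1-/- cells of sub-cluster 5, and in 21.4% and 22.9% of sub-cluster 8. Sub-clusters 5 and 8 therefore differed in the receptor by more than counting error in each library. Macrophage-like cells, which served as the background for cells that should lack follicle genes, held it in 0.418% and 0% of thinned cells (median depths before thinning 7497 and 4806.5 UMIs).

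Cd34 followed a different order among the same cells. Its level was 1131 CPM in wildtype versus 1051 CPM in Eppk1-/- sub-cluster 5, and 1294 and 1444 CPM in sub-cluster 8, so that sub-cluster 8 was the higher for Cd34 and the lower for Lgr5. The outer sheath and isthmus-like cells held less, 154 and 173 CPM, and the upper follicle-like cells were at 14.9 and 16.1 CPM, no higher than basal keratinocytes of sub-cluster 1 at 16.1 and 16.9 CPM. Cd34 was found in 83.7% and 84.4% of sub-cluster 8 cells and in 69.7% and 61.0% of sub-cluster 5 cells. Fibroblast markers, summed over 9 genes, stood at 339 and 439 CPM in sub-cluster 5 and at 325 and 354 CPM in sub-cluster 8, against 93483 and 92822 CPM in fibroblast-like cells, where Cd34 itself was at 3407 and 2993 CPM. Of these 9 markers, 1 or 2 were at 0 in each of these sub-clusters. Relative to fibroblast-like cells, Cd34 was far higher in the bulge-like cells than the fibroblast markers were. The part of fibroblast RNA in the Cd34 level of these sub-clusters was not tested.

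Lgr6, the other R-spondin receptor, occupied other cells. It was highest in sub-cluster 7, at 460 CPM in wildtype versus 414 CPM in Eppk1-/- cells, where Lgr5 was nearly absent. It was at 78.6 and 93.1 CPM in sub-cluster 5 and nearly absent from sub-cluster 8, with 2 UMIs in wildtype and 0 in Eppk1-/- cells, although both sub-clusters carried Lgr5. Lgr6 was not confined to the follicle sub-clusters. Basal keratinocytes held it at 56.4 and 76.9 CPM in sub-cluster 1 and 96.2 and 97.0 CPM in sub-cluster 2, while upper follicle-like cells had 4.89 and 3.49 CPM. Differentiating cells of sub-cluster 6 were near 0, at 1.85 and 0.429 CPM. Of the UMIs of Lgr6 in keratinocytes, 774 of 1552 in wildtype and 373 of 1045 in Eppk1-/- cells lay in the follicle sub-clusters.

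Lrig1 shared its peak with Lgr6 but spread further. Sub-cluster 7 held 514 CPM in wildtype versus 472 CPM in Eppk1-/- cells, and the unnamed sub-cluster 3 held 357 and 341 CPM. Upper follicle-like cells, at 152 and 138 CPM, did not exceed the basal sub-cluster 9, at 150 and 111 CPM, beyond their intervals. The bulge and germ-like cells were lowest among the large follicle sub-clusters, with 129 and 85.03 CPM in sub-cluster 5 and 53.4 and 64.4 CPM in sub-cluster 8. Lrig1 and Cd34 thus ran in opposite order of level across sub-clusters 7, 5 and 8 in both libraries. A UMI of Lrig1 was found in 53.8% and 48.2% of sub-cluster 7 cells and in 10.7% and 7.34% of sub-cluster 8 cells, beside 0.835% and 0.980% of macrophage-like cells.

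Among the transcription factors, Lhx2 and Tbx1 were, like Cd34, highest in a bulge and germ-like sub-cluster when averaged over the libraries. Lhx2 was at 995 CPM in wildtype versus 1208 CPM in Eppk1-/- cells of sub-cluster 8, 749 and 976 CPM in sub-cluster 5, and 525 and 708 CPM in sub-cluster 7. Upper follicle-like cells stood at 18.9 and 29.7 CPM, and no sub-cluster outside the follicle exceeded the proliferating cells at 73.0 and 65.6 CPM. Tbx1 was at 236 and 292 CPM in sub-cluster 5 and at 234 and 221 CPM in sub-cluster 8, levels that did not differ beyond counting error in wildtype cells. The companion layer-like cells carried Tbx1 too, at 259 CPM in 61 wildtype cells and 163 CPM (8 UMIs) in 12 Eppk1-/- cells, where Cd34 was at 26.4 and 20.3 CPM and Lgr5 had 4 and 0 UMIs. In sub-cluster 7 Tbx1 was at 78.1 and 67.6 CPM, and in the upper follicle-like cells at 1.40 and 2.10 CPM.

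Nfatc1 and Foxc1, which are both linked to the quiescence of bulge cells, were not highest in the bulge and germ-like sub-clusters 5 and 8. Nfatc1 stood at 596 CPM in wildtype versus 677 CPM in Eppk1-/- cells of sub-cluster 7, against 333 and 391 CPM in sub-cluster 8 and 228 and 205 CPM in sub-cluster 5. It was present through the basal cells as well, at 54.5 to 111 CPM in sub-clusters 1, 2 and 9 over both libraries. Foxc1 was at 464 and 528 CPM in the companion layer and inner bulge-like cells (193 and 26 UMIs) and 515 and 458 CPM in sub-cluster 7. Lower levels of Foxc1 were 416 and 389 CPM in sub-cluster 8, 327 and 343 CPM in the upper follicle-like cells and 229 and 192 CPM in sub-cluster 5. Unlike Nfatc1 it was near absent from the basal sub-clusters 1, 2 and 9, with at most 10.6 CPM.

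Sox9 reached every follicle sub-cluster. It was at 3667 CPM in wildtype versus 3089 CPM in Eppk1-/- companion layer-like cells, 2541 and 2495 CPM in sub-cluster 8, 1851 and 2041 CPM in sub-cluster 7 and 1661 and 1708 CPM in sub-cluster 5. The upper follicle-like cells followed with 937 and 938 CPM, the same level in both libraries, and the unnamed sub-cluster 3 with 870 and 755 CPM. Basal sub-clusters 1, 2 and 9 stood between 11.4 and 53.0 CPM. Sox9 was found in 79.1% to 88.1% of thinned cells of sub-clusters 5, 7 and 8 over both libraries and in 2.88% and 1.91% of basal sub-cluster 1, the latter no higher than the 3.76% and 1.96% of macrophage-like cells.

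Sostdc1, the secreted inhibitor, was the exception in position. It was at 242 CPM in wildtype versus 337 CPM in Eppk1-/- cells of sub-cluster 3, ahead of 143 and 232 CPM in sub-cluster 7, 128 and 117 CPM in sub-cluster 8 and 82.8 and 136 CPM in sub-cluster 5. Upper follicle-like cells held 59.7 and 85.6 CPM, while the basal sub-clusters 1 and 2 held at most 6.68 CPM. Sub-cluster 3 also carried Sox9, Lrig1, Nfatc1 and Foxc1 but almost no Lgr5, Lhx2 or Tbx1, each at no more than 8.34 CPM.

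Expression over cell groups was also compared between genes. The measure was Pearson's r of log2(CPM + 1) over 25 cell types and keratinocyte sub-clusters, among 12282 genes. The groups share libraries and depth, so that r is a description only. Sox9 and Foxc1 were each other's nearest gene of all (r = 0.95), followed by Egr2 and Efnb2 for Sox9 and by Efnb2 and Itgb8 for Foxc1. Lhx2 was most like Shisa2, Dapk2 and Wfdc3 (0.82 to 0.87), and Tbx1 most like Exoc3l2, Wfdc3 and Pdzrn4 (0.87 to 0.92), so that Wfdc3 was near both. Lgr5 was most like Enox1, Adamts19 and Ltbp2 (0.81 to 0.84), and Lgr6 most like Klhdc8b, Dsg2 and Itgb6 (0.79 to 0.81). Between the R-spondin receptors themselves r was 0.083, whereas Lgr6 and Lrig1 had 0.76. Nfatc1 was nearest to Tnrc6c, Ankrd50 and Sp4 (0.89 to 0.91), Lrig1 to Ints1, Snai2 and Sult5a1 (0.85 to 0.87), and Sostdc1 to Adgrl3, Fam83a and Cldn8 (0.80 to 0.82). Cd34 was most like Col6a1, Col6a2 and Fbln1 (0.92 to 0.96), which are matrix genes of fibroblasts. With Lhx2 and Tbx1 the r of Cd34 over all these groups was only 0.35 and 0.36.

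Single follicle cells commonly held several of the genes at the same time. After thinning, 2 or more of the 10 genes were detected in 82.5% (80.4 to 84.4) of wildtype and 78.9% of Eppk1-/- follicle keratinocytes (75.9 to 81.7). Over all keratinocytes the shares were 36.2% and 30.6%, and without thinning 53.2% and 46.5%. In sub-cluster 5 the mean number held was 4.34 in wildtype and 4.30 in Eppk1-/- cells, in sub-cluster 8 it was 4.20 and 4.26, and in sub-cluster 7 it was 4.07 and 4.01. These 3 sub-clusters were alike in number while differing in which genes they held. Upper follicle-like cells held a mean of 1.86 and 1.81, sub-cluster 3 held 2.13 and 2.14, and basal sub-cluster 1 held 0.568 and 0.597. No thinned cell held more than 9 of the genes. Before thinning, 3 wildtype and 2 Eppk1-/- follicle keratinocytes held all 10.

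**Figure D2:**
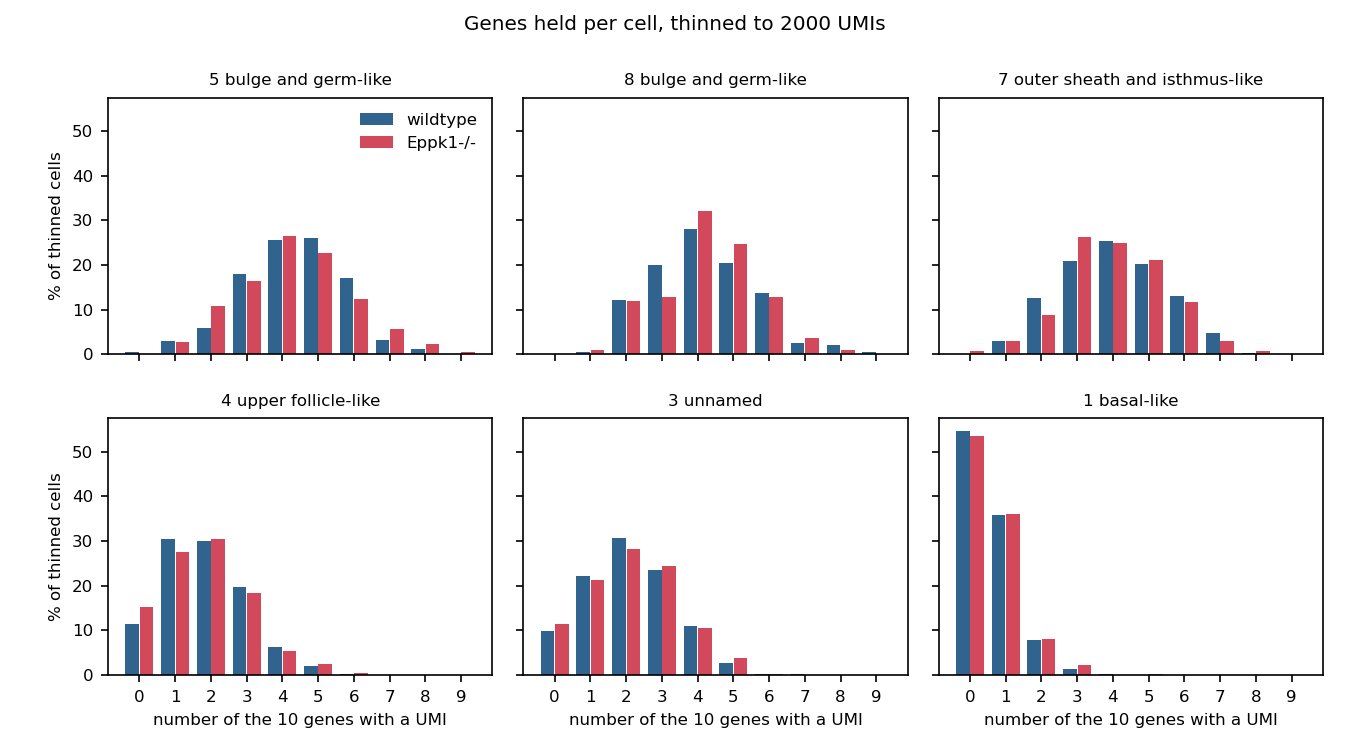
Share of cells thinned to 2000 UMIs (vertical axis, percent) that hold each number of the 10 genes (horizontal axis), in 6 sub-clusters, with blue bars for wildtype and red bars for Eppk1-/- cells. Sub-clusters 5, 8 and 7 centre near 4 genes, with means from 4.01 to 4.34, while basal cells of sub-cluster 1 mostly hold 0 or 1 (means 0.568 and 0.597).

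Over all follicle keratinocytes pooled, pairs of the bulge set (Cd34, Lgr5, Tbx1 and Lhx2) were often detected in the same cells. The set was drawn from the peaks of these genes in the same data. Overlap over pooled, unlike sub-clusters therefore follows from that choice and is a description only. Lhx2 was detected in 74.6% of wildtype cells with Cd34 (341 of 457) and in 24.2% of cells without it, and in 73.0% (176 of 241) against 23.6% of Eppk1-/- cells. Lgr5 was detected in 32.6% of cells with Cd34 against 6.83% without it in wildtype, and in 29.0% against 7.51% in Eppk1-/- cells. Tbx1 was detected in 35.2% of cells with Lhx2 against 7.89% without it in wildtype, and in 35.4% against 4.67% in Eppk1-/- cells. Each of these differences lay outside the counting intervals in both libraries.

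The outer sheath set (Lgr6, Lrig1 and Nfatc1), drawn from peaks in the same way, also overlapped over all follicle keratinocytes pooled. Lrig1 was detected in 51.6% of wildtype cells with Lgr6 against 23.3% without it, and in 43.5% against 22.9% of Eppk1-/- cells. Nfatc1 was detected in 59.5% against 37.7% and in 62.4% against 40.8%. Within sub-cluster 7 Lrig1 was in 57.6% of wildtype cells with Lgr6 and 50.3% without it, and in 48.3% and 48.1% of Eppk1-/- cells, all within the intervals. Nfatc1 stood at 71.2% against 51.7% there in wildtype, with separate intervals, and at 77.6% against 64.6% in Eppk1-/- cells, with overlapping ones. Between Cd34 and Lrig1, 1 of each set, the relation was inverse. Lrig1 was found in 15.3% of wildtype cells with Cd34 against 32.8% without it, and in 12.9% against 30.4% of Eppk1-/- cells. For the R-spondin receptors Lgr5 and Lgr6 no relation was detectable beyond the intervals. Lgr6 was detected in 14.95% of wildtype cells with Lgr5 and 13.2% without it, and in 15.2% and 9.88% of Eppk1-/- cells.

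In sub-cluster 5 the overlap of the bulge set was smaller than over all follicle keratinocytes. Lhx2 was found in 74.4% of wildtype cells with Cd34 and 63.8% of those without, and in 79.6% and 72.5% of Eppk1-/- cells, with overlapping intervals. In the same sub-cluster Lhx2 was found in 67.9% of wildtype cells with Lgr5 and 74.2% without it, and in 81.6% against 72.2% of Eppk1-/- cells, a difference of opposite sign in the libraries and within the intervals. Cd34 was found in 68.5% of wildtype cells with Lgr5 and 70.9% without, and in 55.2% and 66.7% of Eppk1-/- cells. Lgr5 and Lgr6 did meet in sub-cluster 5, where Lgr6 was found in 18.2% of wildtype cells with Lgr5 and 9.34% without it, and in 19.5% against 10.0% of Eppk1-/- cells, with overlapping intervals in each library. In sub-cluster 8 the share of wildtype cells with Lhx2 was 78.0% (70.9 to 84.1) beside Cd34 and 46.9% (29.1 to 65.3) without it, intervals that did not overlap, whereas in Eppk1-/- cells the shares were 76.1% and 70.6%, with overlapping intervals.

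The inverse relation of Cd34 and Lrig1 was present inside sub-cluster 7. Lrig1 was found in 24.3% of its wildtype cells with Cd34 (9 of 37) and in 58.3% of those without, and in 15.4% (4 of 26) against 55.9% of its Eppk1-/- cells. Lhx2 went the other way, found in 78.4% of wildtype sub-cluster 7 cells with Cd34 against 48.3% without it, and in 69.2% against 47.7% of Eppk1-/- cells, where the intervals overlapped. Cells with Cd34 were a minority of sub-cluster 7, 37 of 277 in wildtype. Lgr6 was about as common in its cells with Cd34 (20 of 37 and 13 of 26) as in those without (46.7% and 40.5%), within the intervals.

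**Figure D3:**
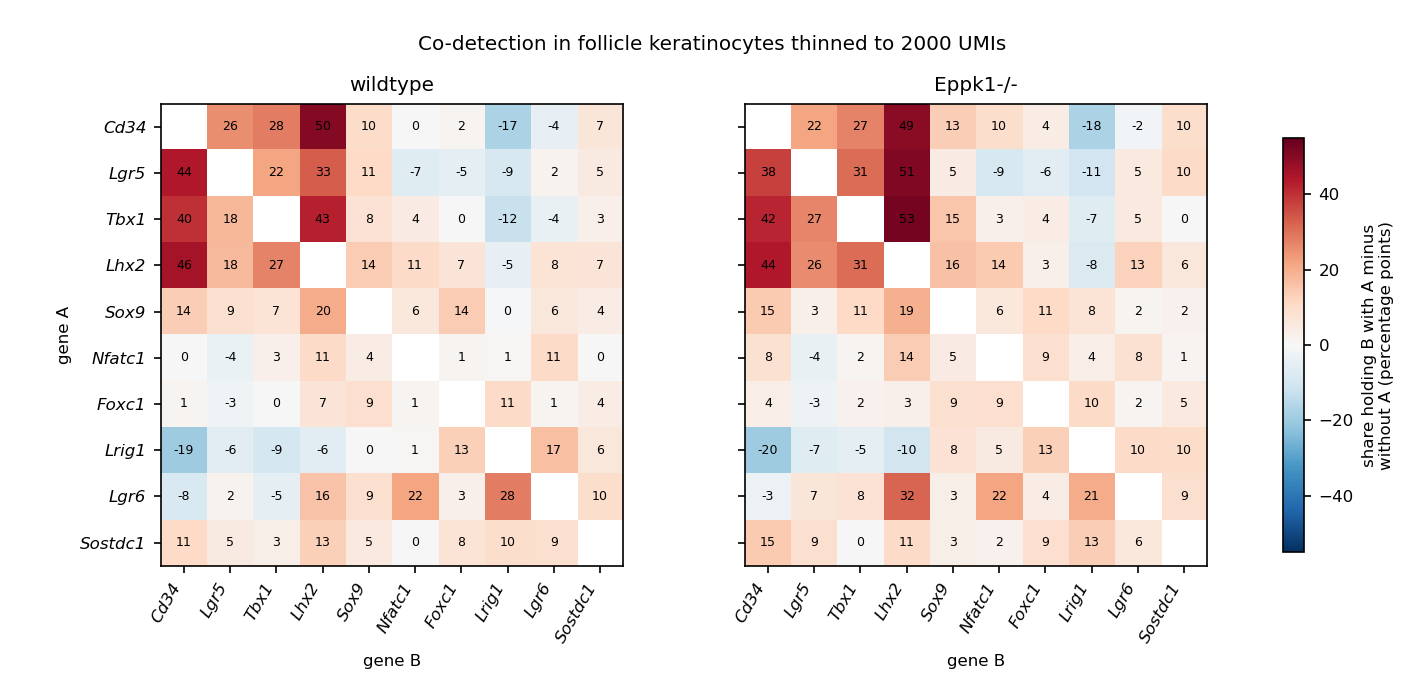
Difference in the share of thinned follicle keratinocytes holding gene B (columns) between cells with and cells without gene A (rows), in percentage points, with red for higher and blue for lower, for wildtype (left) and Eppk1-/- cells (right). Cd34, Lgr5, Tbx1 and Lhx2 form a red block (Lhx2 in 74.6% of wildtype cells with Cd34 against 24.2% without), and Cd34 with Lrig1 is blue (15.3% against 32.8%).

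Promoter sequences, 250 bases before and 50 after the annotated start, were available from RefSeq (GRCm38.p6) for 6 of the 10 genes. The promoters of Cd34 and Lhx2, of the bulge set, and of Lgr6 and Lrig1, of the outer sheath set, are given 5′ to 3′ on the strand of the gene. Capitals mark matches on either strand to the motifs searched: a SOX motif (ACAATG or ACAAAG), a LIM homeobox motif (TAATTA), a forkhead motif (GTAAACA or GTAAATA), a T-box motif (GGTGTGA), an NFAT motif (GGAAAA), a TCF/LEF motif (CTTTGAT or CTTTGAA, which overlaps the reverse of ACAAAG) and a GC box (GGGCGG).

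Cd34, chr1:194938571-194938870, plus strand: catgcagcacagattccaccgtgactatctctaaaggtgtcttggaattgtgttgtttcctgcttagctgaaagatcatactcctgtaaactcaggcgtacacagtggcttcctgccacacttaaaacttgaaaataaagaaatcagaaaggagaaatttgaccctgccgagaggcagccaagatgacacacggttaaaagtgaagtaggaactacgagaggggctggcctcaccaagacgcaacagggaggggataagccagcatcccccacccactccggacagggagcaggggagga

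Lhx2, chr2:38339031-38339330, plus strand: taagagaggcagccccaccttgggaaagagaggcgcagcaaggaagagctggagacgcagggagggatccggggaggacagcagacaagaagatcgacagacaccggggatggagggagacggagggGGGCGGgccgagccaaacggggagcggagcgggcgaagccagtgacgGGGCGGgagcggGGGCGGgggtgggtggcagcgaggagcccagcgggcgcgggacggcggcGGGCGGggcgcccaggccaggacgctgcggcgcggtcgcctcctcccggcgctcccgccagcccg

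Lgr6, chr1:135105227-135105526, minus strand: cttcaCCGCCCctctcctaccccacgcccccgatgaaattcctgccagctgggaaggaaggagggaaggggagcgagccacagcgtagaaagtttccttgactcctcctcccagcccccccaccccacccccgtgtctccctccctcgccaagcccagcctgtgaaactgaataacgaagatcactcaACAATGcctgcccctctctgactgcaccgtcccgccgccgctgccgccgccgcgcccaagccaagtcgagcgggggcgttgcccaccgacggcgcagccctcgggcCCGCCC

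Lrig1, chr6:94700096-94700395, minus strand: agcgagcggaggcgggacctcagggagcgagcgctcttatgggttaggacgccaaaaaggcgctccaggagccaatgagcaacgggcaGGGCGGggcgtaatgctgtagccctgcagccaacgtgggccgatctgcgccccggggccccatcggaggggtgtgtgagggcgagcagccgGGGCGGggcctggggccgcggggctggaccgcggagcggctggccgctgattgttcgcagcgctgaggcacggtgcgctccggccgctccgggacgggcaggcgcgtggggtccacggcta

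The Cd34 promoter had none of the motifs and a GC content of 50%, whereas the other 3 had a GC content of 67.67% to 74.67%. Lhx2 had 4 GC boxes and Lgr6 and Lrig1 had 2 each, and a GC box was present in 35.7% of 32851 mouse promoters of the same length. The single SOX match, ACAATG in Lgr6, began 62 bases before the start, and 28.6% of all promoters held a SOX match. The other motifs were absent from these 4 windows and present in 5.29% (LIM homeobox), 6.54% (forkhead), 3.98% (T-box), 23.4% (NFAT) and 8.65% (TCF/LEF) of all promoters. Another annotated start of Lhx2 (window chr2:38351058-38351357, plus strand, not printed) had 0 GC boxes and an NFAT match that began 139 bases before it. All these matches describe letters in a window and no binding was measured.

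Among follicle keratinocytes, those that held the bulge genes or Lgr6 had less Eppk1, the gene removed in the knockout. In wildtype follicle keratinocytes Eppk1 was at 647 CPM in cells with a UMI of Lgr5 and 1905 CPM in cells without, and at 876 and 2059 CPM in cells with and without Cd34. In Eppk1-/- follicle keratinocytes, with their lower counts, the values were 87.8 and 374 CPM for Lgr5 and 121 and 401 CPM for Cd34. Wildtype cells with and without Lhx2 had 912 and 2240 CPM, and those with and without Tbx1 had 860 and 1963 CPM. The gap was not particular to the bulge set, since wildtype cells with and without Lgr6 had 1012 and 1829 CPM. With Sostdc1 the values were 1333 against 1821 CPM. With Lrig1 the gap was small in wildtype cells, 1550 against 1828 CPM. With Foxc1 it was small in wildtype cells, 1664 against 1741 CPM, and reversed in Eppk1-/- cells, 375 against 232 CPM. The gap was reversed in wildtype cells with Sox9, 1706 against 1489 CPM, and with Nfatc1, 1831 against 1316 CPM. These cells were not thinned, and the median depth was 3315 UMIs in wildtype cells with Lgr5 and 3860 in those without. Upper follicle-like cells, in which Lgr5, Cd34, Lhx2 and Tbx1 were low, held 50.3% of the follicle UMIs in wildtype and 57.7% in Eppk1-/- cells. Over all Eppk1-/- keratinocytes there was no such gap for Cd34, with Eppk1 at 800 CPM in cells with Cd34 (765 to 836) and 783 CPM in cells without (771 to 795). In wildtype keratinocytes there was one, at 2411 against 3066 CPM. For the rest of the bulge set the gap was present in Eppk1-/- keratinocytes too. The values were 287 against 803 CPM for Lgr5, 195 against 845 CPM for Lhx2 and 107 against 822 CPM for Tbx1.

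The genes differed widely in the share of their UMIs that lay outside keratinocytes. Keratinocytes held 92.4% of the Lhx2 UMIs of all kept cells in wildtype and 95.3% in Eppk1-/- skin, 87.5% and 90.3% of Tbx1, 87.9% and 92.4% of Sostdc1, and 84.5% and 88.8% of Lgr6. Sox9 (90.2% and 81.9%) and Foxc1 (84.3% and 74.1%) were mostly in keratinocytes too. Lgr5 (76.8% and 61.0%), Lrig1 (67.5% and 54.8%) and Nfatc1 (66.1% and 58.1%) were in between. Cd34 was the opposite, with 6.94% and 3.66% of its UMIs in keratinocytes and 77.3% and 82.0% in fibroblast-like cells, and of the 10 genes it alone had most of its UMIs outside keratinocytes in both libraries. These shares depend on how many cells of each type were captured, and 18.2% of wildtype and 27.6% of Eppk1-/- cells were fibroblast-like.

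Fibroblast-like cells were the main other site of Cd34, Lgr5, Lrig1 and Nfatc1. Cd34 was found in 97.3% of thinned wildtype and 95.9% of Eppk1-/- fibroblast-like cells. Lrig1 was at 85.1 and 74.9 CPM and Nfatc1 at 96.6 and 78.0 CPM there, found in 15.8% and 13.7% and in 16.8% and 13.8% of cells. For Lrig1 this was far above macrophage-like cells (14.9 and 10.7 CPM). For Nfatc1 it was not, since macrophage-like cells held 100.7 and 79.8 CPM and T and NK-like cells 184 and 132 CPM, so that Nfatc1 was spread over immune cells as well. Lgr5 was at 15.6 CPM (187 UMIs) and 14.3 CPM (216 UMIs) in fibroblast-like cells, against 1.65 and 0.474 CPM in macrophage-like cells. It was found in 3.37% and 3.19% of thinned fibroblast-like cells, beside 0.418% and 0% of macrophage-like cells. An unnamed cluster led by Angpt4, Myoc and C7 (cluster 9) held Cd34 at 2680 and 1890 CPM and Lrig1 at 164 and 168 CPM.

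Other skin cells carried subsets of the genes. Sebaceous gland-like cells had Sox9 at 495 CPM in wildtype versus 475 CPM in Eppk1-/- cells and Foxc1 at 265 and 315 CPM, with Lrig1 at 121 and 69.5 CPM, whereas Lhx2 had 13 UMIs and 0 UMIs there. Endothelial-like cells, 35 in wildtype and 23 in Eppk1-/- skin, had Cd34 at 731 and 812 CPM, Nfatc1 at 253 and 297 CPM and Tbx1 at 167 and 70.9 CPM (29 and 11 UMIs). Fibroblast markers were also present in these endothelial-like cells, at a sum of 7550 and 6094 CPM, and their part in the Cd34 level was not tested. In 27 wildtype melanocyte-like cells Sox9 was at 1030 CPM (78 UMIs), and in 14 Eppk1-/- cells it had 0 UMIs.

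**Figure D4:**
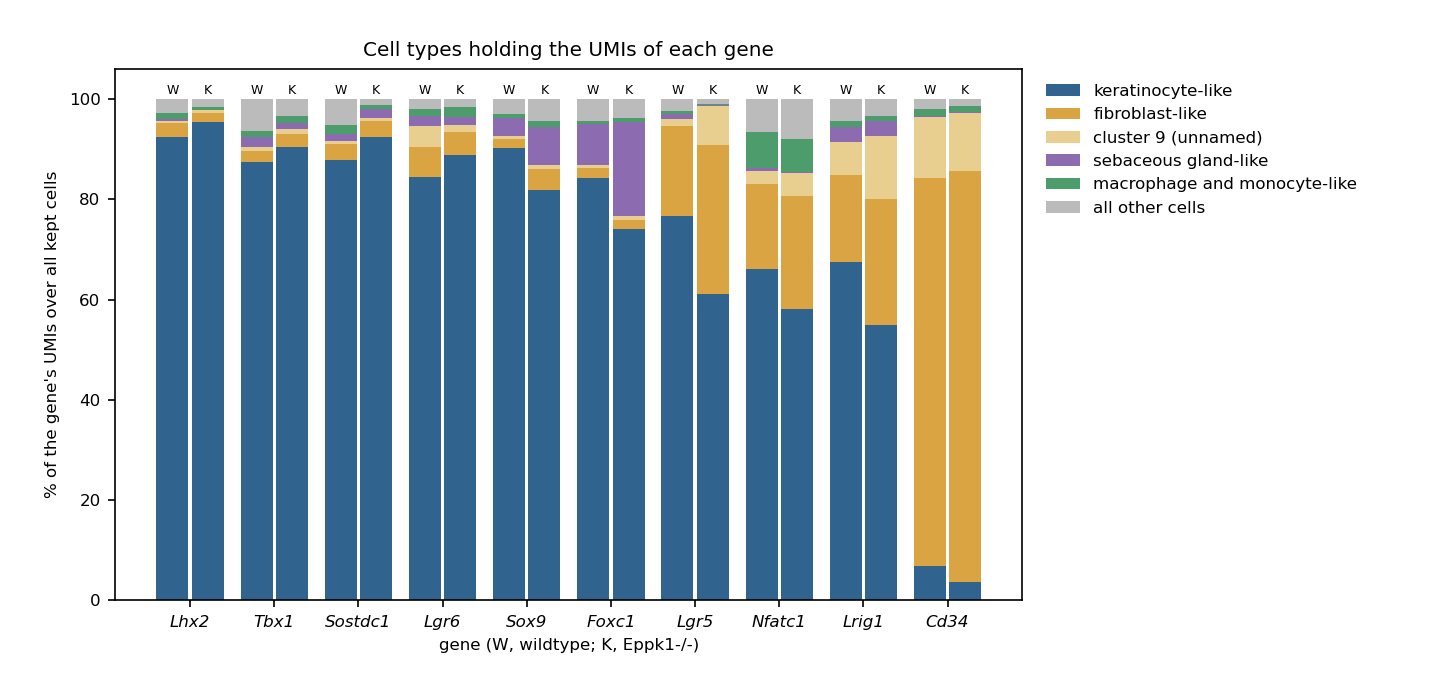
Share of each gene's UMIs over all kept cells (vertical axis, percent) that lies in each group of cell types (colours), for each gene (horizontal axis) in wildtype (W) and Eppk1-/- (K) cells. Keratinocyte-like cells hold from 92.4% and 95.3% (Lhx2) down to 6.94% and 3.66% (Cd34), whose UMIs lie mostly in fibroblast-like cells.

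Of the R-spondins, the ligands of Lgr5 and Lgr6, Rspo1, Rspo2 and Rspo4 were scarce in keratinocytes, but Rspo3 was not. Rspo2 and Rspo4 had 0 UMIs in keratinocytes of both libraries, and Rspo1 had 2 and 4. Fibroblast-like cells held Rspo1 at 24.1 CPM in wildtype versus 25.7 CPM in Eppk1-/- cells and Rspo3 at 9.28 and 9.02 CPM (111 and 136 UMIs). Rspo3 was at 5.94 and 8.41 CPM (211 and 202 UMIs) over all keratinocytes. Its highest mean level over the libraries among sub-clusters was 67.6 CPM, in basal sub-cluster 9, where Lgr6 was at 113 and 119 CPM. The receptor and this ligand were therefore both counted in that basal sub-cluster.

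Between genotypes the 10 genes differed little. A gene passed a rule of size when log2 of Eppk1-/- over wildtype CPM reached 0.5 in either direction, among genes with at least 50 UMIs over both libraries. This is no test. Over all keratinocytes 0 of the 10 genes passed, where 2.5% of 11562 genes passed upward and 4.81% downward, and the median of the 10 was -0.16 against -0.02 for all genes. The lowest was Tbx1, at 23.9 CPM in wildtype versus 18.3 CPM in Eppk1-/- keratinocytes (log2 ratio -0.38, interval -0.55 to -0.22). Sox9 was at 487 and 393 CPM (-0.31, -0.35 to -0.27), and Cd34 at 103 and 83.9 CPM and Lgr5 at 22.6 and 18.4 CPM had a ratio of -0.29 each. Lhx2, Lgr6 and Nfatc1 stood at -0.01, 0.00 and 0.00. After thinning, Cd34 (-0.51) and Tbx1 (-0.61) passed the rule downward, where 6.87% of 10175 genes did and 1.86% passed upward.

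The ratios over all keratinocytes were also computed at an equal make-up of the libraries, and the part of make-up in them was not tested. Follicle keratinocytes were 30.0% of wildtype and 23.7% of Eppk1-/- keratinocytes. With each sub-cluster given the same weight in both libraries, the ratios were 0.02 for Tbx1, -0.06 for Sox9, -0.05 for Cd34 and 0.02 for Lgr5. Lrig1 was at -0.12 as measured and -0.11 at equal weights. Sub-clusters 14 and 15 entered these weights with only 12 Eppk1-/- cells each. Genotype, mouse and the piece of skin taken cannot be told apart as sources of the difference in follicle share.

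Within follicle keratinocytes 1 of the 10 genes passed the rule, where 2.77% of 10302 genes passed upward and 5.59% downward. Sostdc1 was at 81.2 CPM (693 UMIs) in wildtype versus 117 CPM (579 UMIs) in Eppk1-/- cells, a log2 ratio of 0.52 (0.36 to 0.69) just past the rule. It was higher in sub-cluster 5 (82.8 and 136 CPM), sub-cluster 7 (143 and 232 CPM) and the upper follicle-like cells (59.7 and 85.6 CPM), but not in sub-cluster 8 (128 and 117 CPM). It was also higher in the unnamed sub-cluster 3, at 242 and 337 CPM (ratio 0.48). When cells were thinned to the same depth the ratio in follicle keratinocytes was 0.33 (0.06 to 0.59), under the rule, and as a mean over cells it was 0.42. Thinning gives each cell the same weight and leaves out the shallower cells.

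Lhx2 was the other gene whose interval lay above 0 in follicle keratinocytes. It was at 351 CPM in wildtype versus 412 CPM in Eppk1-/- follicle keratinocytes, a log2 ratio of 0.23 (0.15 to 0.31) that did not pass the rule. It was higher in 5 of 5 follicle sub-clusters, by 0.38 in sub-cluster 5, 0.43 in sub-cluster 7, 0.28 in sub-cluster 8, 0.65 in the upper follicle-like cells and 0.75 in the companion layer-like cells, the last from 138 and 27 UMIs. With equal weights of the sub-clusters the ratio was 0.39. With 1 mouse per genotype, how far Lhx2 varies between mice was not measured.

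Over follicle keratinocytes Lgr5 and Cd34 stood close to equal in the libraries, with log2 ratios of -0.05 and -0.07. In sub-cluster 5 their ratios were 0.00 and -0.10. In the other bulge and germ-like sub-cluster both genes were higher in Eppk1-/- than in wildtype cells, at the levels given above. Tbx1 was higher in Eppk1-/- cells of sub-cluster 5, at 0.31 (0.07 to 0.54), but stood at -0.14 over follicle keratinocytes. Lgr6 was at 90.7 and 75.2 CPM (-0.27), Lrig1 at 189 and 166 CPM (-0.19), Nfatc1 at 291 and 300 CPM (0.04), Foxc1 at 353 and 339 CPM (-0.06) and Sox9 at 1511 and 1402 CPM (-0.11). In sub-cluster 5 Lrig1 was lower, at 129 CPM (214 UMIs) in wildtype versus 85.03 CPM (74 UMIs) in Eppk1-/- cells (-0.60, -1.01 to -0.22). The median of the 10 genes in follicle keratinocytes was -0.06 against -0.02 for all genes.

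**Figure D5:**
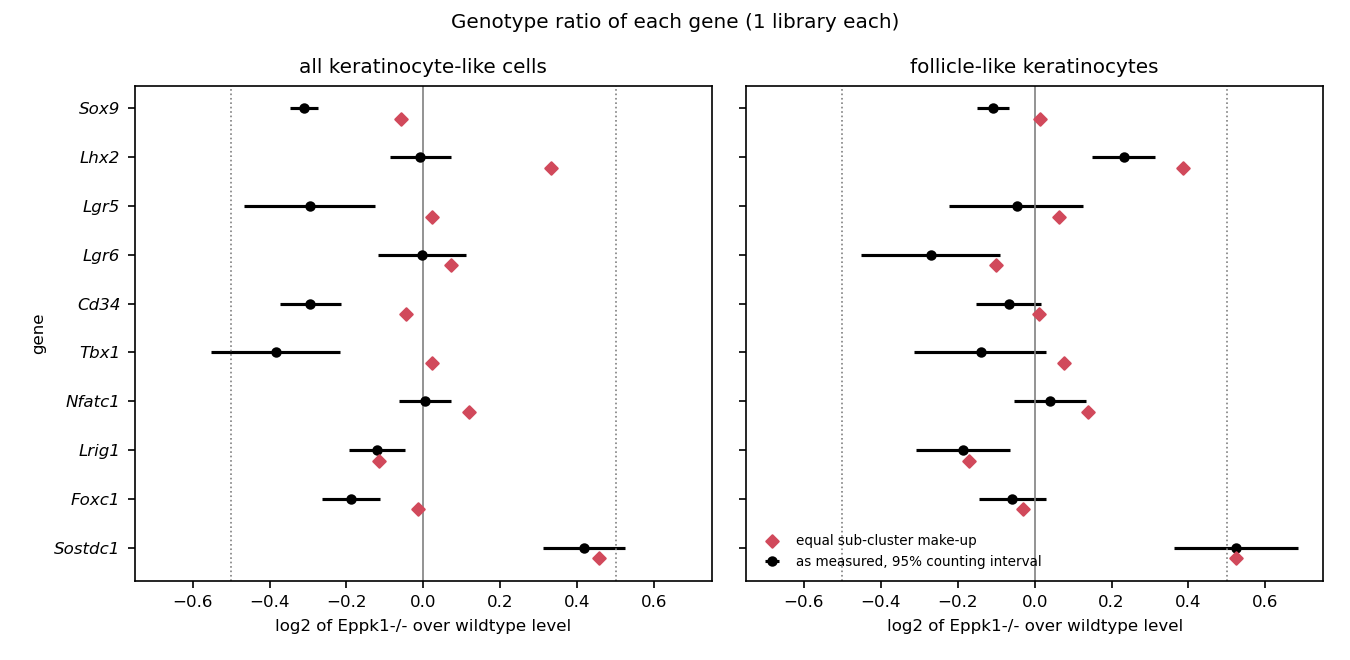
Log2 ratio of Eppk1-/- over wildtype level (horizontal axis) for each of the 10 genes (vertical axis) in all keratinocyte-like cells (left) and follicle keratinocytes (right); black points with bars are the ratios as measured with 95% counting intervals, red diamonds the ratios at equal sub-cluster make-up, and dotted lines the rule of 0.5. Sostdc1 in follicle keratinocytes (0.52) lies just past the upper line, and equal make-up brings Sox9 in all keratinocytes from -0.31 to -0.06.

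In fibroblast-like cells, where Tbx1 had too few UMIs, 4 of the 9 genes with enough UMIs passed the rule downward, where 6.82% of 11540 genes did and 9.05% passed upward. Lhx2 was at 7.86 CPM in wildtype versus 2.85 CPM in Eppk1-/- cells, Lgr6 at 9.19 and 3.65 CPM, Foxc1 at 7.36 and 3.92 CPM and Sostdc1 at 4.43 and 3.05 CPM. These levels were of the same order as those of macrophage-like cells, which held Lhx2 at 8.67 and 3.79 CPM, Lgr6 at 4.75 and 5.92 CPM, Foxc1 at 6.40 and 6.40 CPM and Sostdc1 at 6.19 and 2.37 CPM. The 10 keratinocyte markers summed to 2162 and 1972 CPM in fibroblast-like cells, with none at 0, and the part of keratinocyte RNA in these levels was not tested. The genes that fibroblasts carried in quantity differed less, with ratios of -0.19 for Cd34, -0.19 for Lrig1, -0.31 for Nfatc1 and -0.13 for Lgr5. After thinning, 5 of the genes kept enough UMIs, so that most of these low levels could not be judged there.

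A wider list of 28 genes of follicle stem cells and of Wnt, BMP and Hedgehog signalling was also measured. Of these, 24 were highest in a follicle sub-cluster and 12 of them in a bulge and germ-like sub-cluster, including Sfrp1 and Dkk3, which encode secreted Wnt modulators. The 4 others included Znrf3 and Rnf43, ubiquitin ligases that remove Wnt receptors and are inhibited by R-spondins, and Axin2, a Wnt target, all highest in basal sub-clusters, and Gli3, a Hedgehog effector, highest in sub-cluster 3. Lgr4, the third R-spondin receptor of this family, was highest in the companion layer-like cells. The share of all genes that are highest in a follicle sub-cluster was not determined, so the count of 24 has no background. In follicle keratinocytes 27 had enough UMIs, and the median log2 ratio was -0.13 against -0.02 for all genes. Of the 27, 1 passed the rule upward and 0 downward, where 2.77% and 5.59% of all genes did. Foxi3, a forkhead factor of hair development, passed at 6.21 and 10.5 CPM (0.76, 0.18 to 1.34). Among the genes of the list with many UMIs, Id3 (690 and 580 CPM), which encodes an inhibitor of DNA binding, Ctnnb1 (564 and 603 CPM), which encodes beta-catenin, and Nfib (484 and 475 CPM), a transcription factor, stayed within the rule. Over all keratinocytes 27 of the 28 again had enough UMIs, and the median was -0.08 against -0.02 for all genes. There 0 passed upward and 2 downward, where 2.5% and 4.81% of all genes did. The 2 were Hopx, a homeodomain protein, at 333 and 224 CPM (-0.57), and Gli2, a Hedgehog effector, at 8.83 and 5.96 CPM (-0.57, -0.86 to -0.28).

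Of 14 R-spondin and Wnt ligands, 6 had enough UMIs in follicle keratinocytes, where 2.77% of all genes passed the rule upward and 5.59% downward. Wnt4 (19.1 and 27.4 CPM, 0.52) and Wnt10b (9.25 and 14.9 CPM, 0.69) passed the rule upward and Wnt16 (6.68 and 4.03 CPM, -0.70, interval -1.54 to 0.03) downward. Wnt7b (69.0 and 63.1 CPM) and Wnt10a (31.4 and 28.8 CPM) stayed within the rule. Over all keratinocytes 10 ligands had enough UMIs, and all 10 had a ratio above 0, with a median of 0.32 against -0.02 for all genes. The rule was passed upward by 3, Rspo3 (0.50), Wnt6 (0.66) and Wnt10b (0.59), where 2.5% of all genes passed. These keratinocytes held fewer follicle cells in the Eppk1-/- library, and the part of this make-up in the ligand ratios was not tested.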

How the data were processed

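Untreated dorsal skin of 1 wildtype and 1 Eppk1-/- mouse was profiled with the 10x Flex probe assay. The authors deposited raw UMI counts per gene and cell, made with Cell Ranger (version not given in the sources used here) on mm10 (GRCm38), and 13 mitochondrial genes were left out here. The limits on cells were those of the study's methods: a cell was kept if it had between 200 and 45000 UMIs, between 100 and 7500 detected genes, and no more than 10% of UMIs from mitochondria.

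Cells were clustered in Seurat 5.3.0 (R 4.3.3) with log-normalization, where the study used SCTransform, on 2000 variable genes without the 10 genes or the wider lists, with 50 components, RPCA integration and Louvain resolution 0.5. Keratinocyte-like cells were clustered again alone. Clusters were named from marker lists when at least 3 markers were in at least 25% of cells and 0.5 (log2) above the rest, a rule set after the clusters were seen. Endothelial-like and skeletal muscle-like cells were an exception. They lay in clusters left unnamed at resolution 0.5 and took the name of their cluster at resolution 1. Sub-clusters 11 and 12 mixed cell types (107 wildtype and 68 Eppk1-/- cells) and were left out. Doublets were not removed in the main analysis. Scrublet (scanpy 1.11.5) scores were used for an alternative that leaves out the 5% of cells with the highest scores.

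UMIs were summed per library and group (Python 3.11.15, numpy 2.4.6, scipy 1.17.1, pandas 2.3.3), giving CPM with exact Poisson intervals. Ratios used a pseudocount of 0.5 UMI. Shares had exact binomial (Clopper-Pearson) intervals after thinning to 2000 UMIs. With 1 library per genotype, no test across mice was made. edgeR 4.0.16 gave only TMM factors for an alternative. The calculations were tested on simulated data. The 10 genes and the gene lists were chosen with earlier results of these data known. Genes named outside the 10 were the 3 most alike in pattern to each gene, the 3 list genes with the highest follicle level, those past the rule of size, and others chosen after their values were seen.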

Additional observations from a re-analysis of the deposited data

Results flagged for a closer look

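Sostdc1 had ratios of opposite direction in different cells. The log2 ratio of Eppk1-/- over wildtype level was 0.52 in follicle keratinocytes (693 and 579 UMIs) and -0.54 in fibroblast-like cells (53 and 46 UMIs). Both passed the rule of size, the second with an interval that includes 0 (-1.14 to 0.06). With cells clustered at resolution 1, Sostdc1 in fibroblast-like cells did not pass. With 1 library per genotype the difference between the cell types was not tested. The level in fibroblast-like cells, 4.43 and 3.05 CPM, was close to that in macrophage-like cells, 6.19 and 2.37 CPM.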

How the results depend on the processing

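Of 120 log2 ratios recomputed in keratinocytes over 12 alternatives, 19 moved by more than their counting interval, and in follicle keratinocytes 9 of 120 did. Not all of the 120 could move. The alternative without a minimum of UMIs changes only which genes are counted, and leaving out inner root sheath cells removed 2 cells. Of these ratios only that of Sostdc1 in follicle keratinocytes was past the rule of size in the main analysis, and it did not change sign. Ratios within the rule did change sign. With equal make-up in keratinocytes, Tbx1 went from -0.38 to 0.02, Lgr5 from -0.29 to 0.02 and Lhx2 from -0.01 to 0.33. In follicle keratinocytes Tbx1 went from -0.14 to 0.08 and Sox9 from -0.11 to 0.01. In keratinocytes the count past the rule went from 0 to 2 after thinning (Cd34 at -0.51 and Tbx1 at -0.61) and to 1 with a mean over cells (Tbx1 at -0.56). Of all genes, 6.87% and 7.2% then passed downward and 1.86% and 2.83% upward. In follicle keratinocytes the count went from 1 to 0 with either alternative. Of all genes, 6.95% and 6.87% then passed downward and 3.31% and 3.98% upward. In fibroblast-like cells the count went from 4 to 3 of 9 at resolution 1, where Sostdc1 no longer passed. Of all genes, 7.93% passed downward and 8.75% upward at that resolution. The count in fibroblast-like cells went to 2 without the highest doublet scores and to 0 after thinning. There 7 and 5 of the genes, against 9, had enough UMIs, so that genes under the minimum were not judged. Of all genes, 7.67% and 6.37% then passed downward and 9.79% and 9.4% upward. Sostdc1 in follicle keratinocytes ranged from 0.33 to 0.61. The share of keratinocytes holding 2 or more genes was 53.2% and 46.5% at full depth and 36.2% and 30.6% after thinning. Leaving out shared droplet barcodes, counting sub-cluster 3 as follicle, equal make-up, keeping the mixed sub-clusters, counting cluster 9 as fibroblasts and leaving out inner root sheath cells were chosen after seeing the data. No paired analysis was possible because each genotype is 1 library, and no replicate could be left out. Depth limits shares for genes with few UMIs, and 0 counts allow up to 3.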

Other observations

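Genes of the hair shaft and inner root sheath, layers made by a growing follicle, summed to 45.4 CPM in wildtype versus 188 CPM in Eppk1-/- keratinocytes. In the Eppk1-/- upper follicle-like sub-cluster, 3548 of 3698 of these UMIs lay in 1 cell. Cycling cells were 2.28% of wildtype and 3.08% of Eppk1-/- keratinocytes.

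Among keratinocyte sub-clusters, several Wnt ligands were highest in basal cells. Wnt3 and Wnt7b peaked in basal sub-cluster 2, at mean levels of 312 and 368 CPM over the libraries, and Wnt16 in basal sub-cluster 9 at 95.5 CPM. Outside keratinocytes, fibroblast-like cells held Wnt5a at 39.3 CPM in wildtype versus 87.8 CPM in Eppk1-/- cells and Wnt10b at 59.0 and 77.4 CPM.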
